A study of Sus scrofa with 27 samples.

Results

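The genes of collagens and laminins, the proteins from which the fibrous matrix and the basement membranes of the lung are built, were followed in biopsies of pig lungs kept on ex vivo lung perfusion (EVLP). Members were the protein-coding rows of the deposited count table whose symbol is that of a collagen chain (COL, number, A, number) or a laminin chain (LAMA, LAMB or LAMC with a number), with at least 10 counts in some library. Of the 31908 genes of the table, 49 carried such a symbol and 48 were kept. The row named LAMA2 was dropped, since it had at most 3 counts in any library. An unnamed protein-coding row that spans its whole interval (chromosome 1, 33766865 to 34359698) held 30146 counts, so the dropped row does not show that LAMA2 was absent. Its log2 change at 12h was 0.03 ± 0.15, adjusted p = 0.904 in GS and 0.10 ± 0.33, adjusted p = 0.878 in PD, by edgeR. Rows that carry such a gene only in their description, among them COL7A1 with 48469 counts, were not members either. The 48 genes are 10 fibrillar collagens, 5 collagen IV genes, 9 laminins and 24 other collagens.

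Lungs came from Large-White pigs harvested in a non-heart-beating donor model, and spent 1h in the cold before perfusion by the Toronto protocol with Steen solution containing methylprednisolone, a glucocorticoid that both groups therefore received. In the Gold Standard group (GS, 5 pigs: 9, 17, 44, 55 and 77) part of the perfusate was renewed every 2h. In the Pediatric Dialysis group (PD, 4 pigs: 2, 3, 4 and 5) the circuit was coupled to continuous veno-venous hemodialysis through a pediatric membrane. Each pig was biopsied at 0h (after cold ischemia, before EVLP), 6h and 12h, which gave 15 GS and 12 PD libraries of poly(A) RNA. Values below are listed in the pig order given here.

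Collagen chains wind around each other as trimers, in a helix that needs the smallest amino acid, glycine, at every 3 residues, because no larger side chain fits the axis. Fibrillar collagens (I, II, III, V, XI, XXVII) have a long uninterrupted helix and assemble into fibrils. Collagen IV has an interrupted helix and forms the sheet-like network of basement membranes. Laminins are cross-shaped trimers of an α, a β and a γ chain that form the other network of that layer. In the lung, fibroblasts and smooth muscle cells make most fibrillar collagen, while the alveolar wall holds a fused basement membrane between epithelium and endothelium that carries the α3α4α5 form of collagen IV. Collagen XVII and laminin that holds the α chain of LAMA3 and the β chain of LAMB3 anchor epithelial cells to it.

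The repeat can be read in the coding exons of the pig genes. Many exons of fibrillar collagens are 54 bases long and encode 6 glycine triplets. Coding exons of 54 bases were counted by length alone in the RefSeq models (Sscrofa11.1). The 10 fibrillar genes had 21 to 33 each, the 5 collagen IV genes 1 to 3, the 9 laminins 0 and the 24 other collagens 0 to 27. The longest run of glycine codons (GGN) spaced 9 bases apart was 338 in COL1A1, 339 in COL1A2 and 343 in COL3A1. Over the 10 fibrillar genes it was 174 to 343, with 6 over 300, against 39 to 66 in collagen IV genes, 23 to 113 in other collagens and 2 to 3 in laminins. The shorter fibrillar runs were those of COL2A1 (174), COL5A1 (178), COL27A1 (217) and COL11A1 (245). A run was read from the gene model as annotated and is not a measured helix length. Whether gaps in the models shortened these runs was not tested. The first 54-base exon with 6 glycine triplets is shown for both chains of collagen I and for COL27A1. The collagen I chains parted between the groups, and COL27A1 differed most at 0h. Capitals mark the glycine codons, written 5′ to 3′ on the coding strand, and the stretches lie at chr12:26393098-26393151 (minus strand), chr9:74184187-74184240 (plus strand) and chr1:254791698-254791751 (plus strand).
COL1A1: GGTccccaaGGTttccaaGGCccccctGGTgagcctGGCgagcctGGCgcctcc
COL1A2: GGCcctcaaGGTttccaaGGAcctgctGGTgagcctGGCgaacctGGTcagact
COL27A1: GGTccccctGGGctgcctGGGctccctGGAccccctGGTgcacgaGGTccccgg
These exons hold 72.2% G or C in COL1A1, 61.1% in COL1A2 and 77.8% in COL27A1. Over all annotated exon bases the GC content was 62.3%, 53.7% and 62.2%, so partner chains that end up in 1 molecule are transcribed from genes of unlike base composition.

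Depth differed between the groups, as did the 5′ coverage of the COL4A1 transcript. Counts on genes totalled 26335584 to 67522703 per GS library and 14650700 to 21820935 per PD library, without overlap. A second measure came from COL4A1, which has no symbol in the table but is covered by 2 unnamed protein-coding rows on the minus strand of chromosome 11, where RefSeq places this gene. The row at 76858296 to 76888850 holds its 3′ part and the row at 76894904 to 76997414 its 5′ part. The log2 ratio of the 5′ row to the 3′ row was −1.15 to −0.73 in the 15 GS libraries and −5.63 to −1.46 in the 12 PD libraries. Coverage towards the 5′ end of this long transcript was thus lower in each PD library than in every GS library. At 0h the ratios were −1.03, −1.06, −0.95, −0.73 and −0.81 in GS and −2.47, −2.39, −5.63 and −4.23 in PD. Whether a biopsy had been frozen or kept in RNAlater, which decided how its RNA was extracted, is not given per sample in the sources used here. The 5′ coverage was read from COL4A1 alone, and that of other transcripts was not measured. Depth, 5′ coverage of COL4A1 and treatment group cannot be told apart in any comparison between the groups at a single time. Lung markers were present throughout. The summed level of 4 alveolar type 2 markers was 4872 to 14164 CPM (TMM-scaled counts relative to library size) in GS and 15167 to 87309 in PD, 4 alveolar type 1 markers summed to 708 to 2484 CPM over all libraries, and mesothelial and Schwann cell markers to at most 3.4 and 1.1 CPM.

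Levels per kilobase of exon, averaged over the 6 combinations of group and time, ranged from 0.04 to 462 CPM per kb, and their order differed between the groups, so the levels at 0h are given for each. COL3A1, a fibrillar chain of compliant tissue, was highest in both, with 446 CPM per kb in GS and 528 in PD. In GS it was followed by COL6A1 (210.4), a chain of the beaded filaments of collagen VI, then COL4A2 (134), COL1A2 (117) and COL1A1 (112). In PD it was followed by COL1A2 (198), while COL4A2 (59.1), COL6A1 (58.5) and COL1A1 (47.6) stood lower. The partner chains of collagen VI were at 91.8 in GS and 20.9 in PD for COL6A2, and at 74.7 and 48.5 for COL6A3. Among laminins LAMB2 (72.1) was highest in GS, ahead of LAMA4 (62.8), the α chain of endothelial and muscle basement membrane, and LAMC1 (56.3). In PD LAMA4 (62.3) was highest, ahead of LAMB2 (28.3) and LAMC1 (22.6). LAMB2 shares its strand and part of its interval with neighbouring genes, so its count is uncertain. In the collagen IV class COL4A2 was followed in GS by COL4A3 (21.1) and COL4A5 (20.6), and in PD by COL4A5 (16.7) and COL4A3 (13.97). Averaged over all 6 combinations LAMB3 reached 16.9 and COL17A1, the transmembrane collagen of hemidesmosomes, 1.05 CPM per kb. The cartilage chains COL2A1 (0.184), COL11A1 (0.185) and COL11A2 (0.0757) were among the scarce genes, as was LAMA1 (0.192), a laminin chain of the embryo, which still had at least 10 counts in 25 of 27 libraries. The 48 genes together took 1.24% of counts in GS and 0.734% in PD at 0h.

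The first question was whether matrix genes as classes moved over 12h of perfusion. Summed CPM of the fibrillar collagens at 0h was 5253, 4305, 3181, 4329.8 and 4348 in the GS pigs and 5758, 3624, 3366 and 4315 in the PD pigs. At 12h it was 2871, 4346, 4248, 4994 and 4940.0 in GS and 4169.9, 2722, 2805 and 1671 in PD. The mean log2 change from the pig's own 0h was −0.01 ± 0.50 (SD, n = 5) in GS, with 4 of 5 pigs up, and −0.63 ± 0.50 (SD, n = 4) in PD, with all 4 pigs down. The PD fall was larger than the spread between its pigs, whereas the GS change was far smaller than its spread. Single PD pigs ran from −0.26 to −1.37, the latter in pig 5, so the size of the mean rests in part on that pig. These sums are descriptions and were not tested. COL3A1 held the largest share of the fibrillar sum, with a PD mean of 2518 of 4266 CPM before perfusion. Over 12h it dropped from 3430 to 1671 CPM in pig 2, by more than the whole sum did. In that pig COL5A2 also fell (417 to 116 CPM), while COL1A1 (473 to 597), COL1A2 (1265 to 1493) and COL5A1 (120 to 239) rose. In pig 4 COL3A1 barely moved (1867 to 1872 CPM). The fall in pig 2 thus rested on COL3A1, and that in pig 4 did not. Beside the PD fall, the summed level of 7 fibroblast markers went from 459, 387, 361 and 537 CPM at 0h to 703, 327, 280.4 and 358 at 12h, lower in 3 of 4 pigs. The median log2 fold change of these markers in PD at 12h was −0.78, against −0.05 over all genes, and 0 of 7 were called by edgeR, with 2 at an unadjusted p under 0.05. The 5 smooth muscle markers summed to 1997, 1613, 514 and 2089 CPM at 0h and 3773, 1469, 978 and 1493 at 12h, higher in 2 of 4 pigs. Their median log2 change was 0.04, and 0 of 5 were called by edgeR, with 0 at an unadjusted p under 0.05. Other markers moved in PD as well. The sum of 4 alveolar type 2 markers went from 38169, 25798, 76733 and 44961 CPM at 0h to 87309, 21633, 25941 and 17052 at 12h. That of 3 red cell markers went from 51.7, 138, 237 and 127 CPM to 362, 11.5, 10.1 and 7.90. Both sums were lower in 3 of 4 pigs, and 0 of these markers were called by edgeR. The part of these cell types in the fibrillar fall was not tested.

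**Figure D1:**
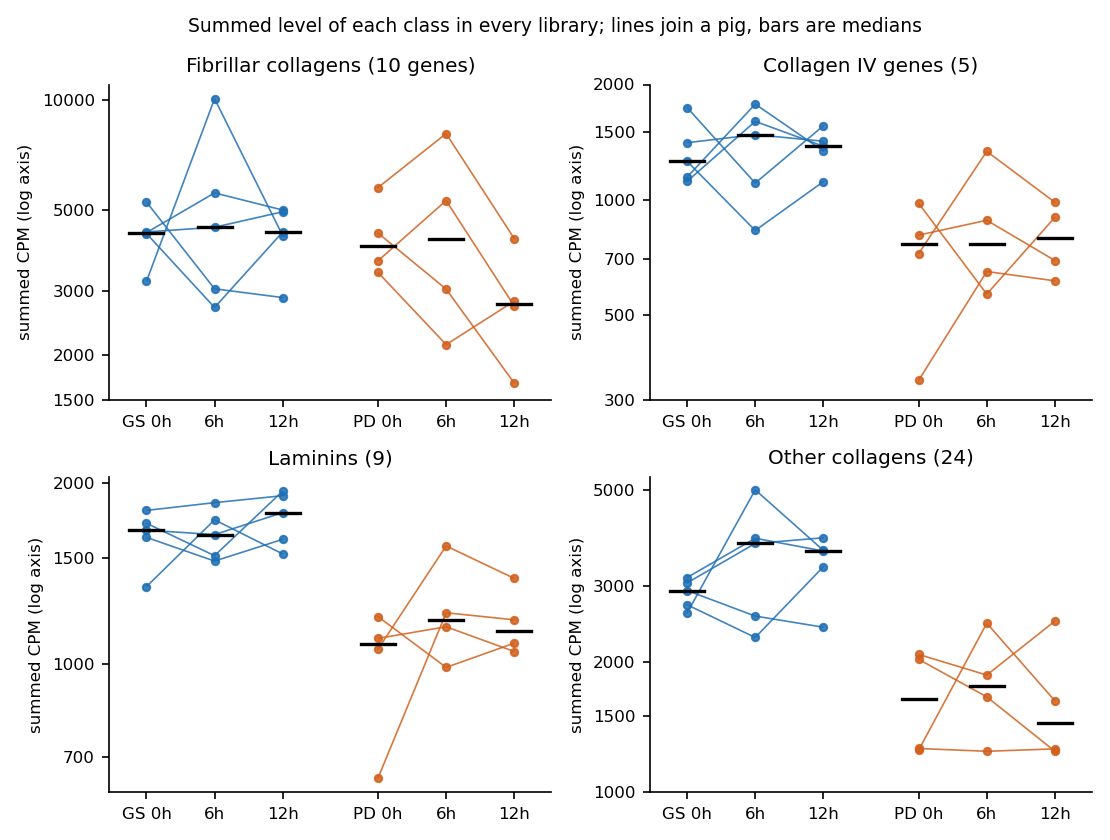
Summed CPM (log axis) of the members of each class in every library, by group and hours of EVLP; a line joins the 3 biopsies of a pig and black bars are medians. The sums of collagen IV, laminins and other collagens at 0h do not overlap between GS and PD, and the fibrillar sum of GS pig 44 at 6h (10100 CPM) is the highest of all libraries.

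For the collagen IV genes the change at 12h was 0.04 ± 0.22 in GS and 0.24 ± 0.51 in PD, for laminins 0.11 ± 0.08 and 0.26 ± 0.47, and for the other collagens 0.21 ± 0.29 and −0.02 ± 0.49 (mean log2 change ± SD, n = 5 and n = 4). Only the laminin change in GS exceeded 1 SD. Computed on raw library totals instead of the TMM scale, all 8 class changes at 12h were negative. They were −0.26, −0.21, −0.15 and −0.046 in GS for fibrillar, collagen IV, laminin and other collagen genes, and −0.90, −0.033, −0.013 and −0.29 in PD. The signs of the collagen IV and laminin changes in both groups and of the other collagens in GS thus depended on the scaling, while the fibrillar changes and that of the other collagens in PD were negative on both scales. At 6h the SDs exceeded the mean changes in all 4 classes and both groups, and the fibrillar sum of GS pig 44 went from 3181 to 10100 CPM, the farthest of the 5 GS pigs.

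The second question was which single genes changed within GS. Fold changes were fitted with edgeR's quasi-likelihood test with the pig as a block. Calls required a change of 2-fold or more together with p under 0.05 after Benjamini-Hochberg adjustment over all genes. At 6h 1 of 47 members tested was called, against 11.1% of all 18594 genes, and at 12h 4 of 47, against 15.7%. COL9A1 was too low to be tested. Without the fold threshold 2 members rose and 4 fell at 6h (background 13.6% up and 14.9% down), and 4 rose and 4 fell at 12h (17.6% and 20.8%). Collagen and laminin genes were thus called no more often than genes at large. The median log2 fold change of the members at 12h was −0.01, beside −0.08 over all genes.

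Members that rose in GS at 12h included LAMB3 and COL17A1, whose proteins fasten epithelium to the basement membrane. LAMB3, the β chain of the epithelial laminin, measured 40.6, 55.9, 29.2, 50.4 and 48.5 CPM at 0h, 59.7, 109, 70.1, 50.6 and 68.03 at 6h and 61.2, 164, 75.7, 95.8 and 84.9 at 12h. It was higher in all 5 pigs at both times and the values at 12h lay above all those at 0h, whereas those at 6h overlapped them. The log2 fold change (± SE here and below, by edgeR) was 0.64 ± 0.17, adjusted p = 0.0143, at 6h and 1.01 ± 0.17, adjusted p = 8.07e-04, at 12h. The change at 12h stood just above the 2-fold line, and without pig 17 or pig 44 it was 0.89 and 0.94. Its α partner LAMA3 gave 0.18 ± 0.15, adjusted p = 0.356, and did not pass. COL17A1 rose from 3.43, 2.51, 5.81, 6.55 and 4.08 CPM to 6.59, 6.07, 6.77, 8.01 and 7.51 in all 5 pigs (0.67 ± 0.20, adjusted p = 0.0179), after 0.17 ± 0.20 at 6h. COL12A1, which decorates fibril surfaces, rose in all 5 pigs at both times, by 0.51 ± 0.14, adjusted p = 0.0149, and 0.57 ± 0.14, adjusted p = 0.00648. COL17A1 and COL12A1 stayed under 2-fold. Over the alternatives by edgeR and DESeq2 the adjusted p reached 0.251 for LAMB3 at 6h and 0.115 for COL17A1 at 12h. For COL12A1 it reached 0.464 at 6h and 0.340 at 12h, while its log2 change stayed between 0.36 and 0.66 and between 0.49 and 0.73.

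The genes that fell in GS were mostly scarce. LAMA1 went from 3.11, 2.71, 1.64, 3.17 and 4.22 CPM at 0h to 1.63, 0.437, 1.69, 1.27 and 2.31 at 6h and 0.574, 0.938, 0.972, 1.57 and 1.91 at 12h. It was lower in 4 of 5 pigs at 6h (−1.09 ± 0.34, adjusted p = 0.0295) and in all 5 at 12h (−1.38 ± 0.34, adjusted p = 0.00686). Groups overlapped at both times. Its call at 6h was lost without the replicate block, with the length trend removed, and without pig 17, pig 55 or pig 77. COL11A1, a chain that nucleates fibrils in cartilage, went from 1.92, 1.76, 1.12, 1.39 and 2.58 CPM to 0.519, 0.276, 0.463, 0.411 and 1.25 at 12h (−1.63 ± 0.44, adjusted p = 0.0112), lower in all 5 pigs, with at least 10 counts in each of these libraries. At 6h the change was −0.96 ± 0.43, adjusted p = 0.111. COL19A1, a rare fibril-associated chain, went from 4.26, 2.06, 2.84, 1.82 and 1.57 CPM to 1.37, 0.634, 1.13, 1.12 and 1.11 (−1.22 ± 0.26, adjusted p = 0.00319), and every pig fell at 6h too (−0.97 ± 0.26, adjusted p = 0.0153). Over the alternatives by edgeR and DESeq2 its adjusted p at 6h reached 0.121. The positions in Sscrofa11.1 are LAMA1 (ENSSSCG00000034767, chromosome 6, 100332873 to 100468454, + strand), COL11A1 (ENSSSCG00000006857, chromosome 4, 115540950 to 115840708, + strand), COL19A1 (ENSSSCG00000044472, chromosome 1, 50045065 to 50399969, + strand) and LAMB3 (ENSSSCG00000015618, chromosome 9, 133311834 to 133351197, + strand).

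**Figure D2:**
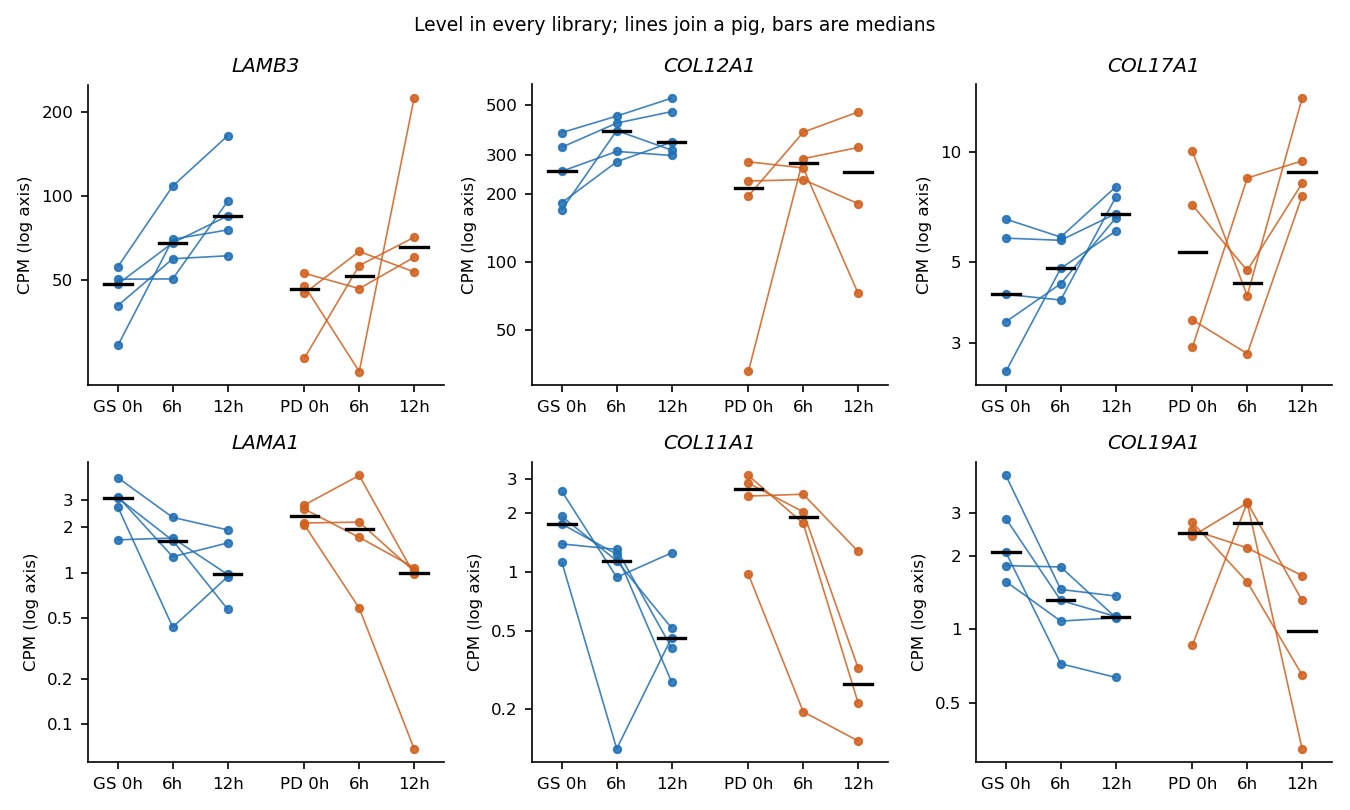
CPM (log axis) in every library of 3 genes that rose and 3 that fell in GS, by group and hours of EVLP; a line joins the biopsies of a pig and black bars are medians. LAMB3 in GS at 12h (61.2 to 164 CPM) sits above GS at 0h (29.2 to 55.9 CPM), and 1 PD library at 12h reaches 224 CPM.

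Within the alveolar collagen IV, COL4A3 went from 214, 203, 164, 171 and 152 CPM at 0h to 130.0, 151, 131, 126 and 101 at 6h, lower in all 5 pigs and without overlap (−0.51 ± 0.12, adjusted p = 0.00672). It remained lower at 12h in all 5 (−0.42 ± 0.12, adjusted p = 0.0125). COL4A4, transcribed from the other strand of the same locus, gave −0.41 ± 0.13, adjusted p = 0.0333, at 6h and −0.30 ± 0.13, adjusted p = 0.0861, at 12h. The third chain, the X-linked COL4A5, gave −0.22 ± 0.18, adjusted p = 0.379, at 6h. None of these reached 2-fold. Over the alternatives by edgeR and DESeq2 the adjusted p of COL4A3 reached 0.395 at 6h and 0.470 at 12h, and that of COL4A4 reached 0.550 at 6h. The log2 change of COL4A3 stayed between −0.55 and −0.37 at 6h and between −0.45 and −0.29 at 12h. That of COL4A4 at 6h stayed between −0.47 and −0.26.

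The most abundant chains were not called in GS. In GS at 12h the log2 fold change was 0.04 ± 0.38 for COL1A1, −0.22 ± 0.31 for COL1A2, −0.16 ± 0.29 for COL3A1, 0.11 ± 0.20 for COL4A2, and 0.18 ± 0.17, 0.13 ± 0.20 and 0.19 ± 0.15 for COL6A1, COL6A2 and COL6A3. Adjusted p for these 7 genes by edgeR was 0.349 or more. The chains of the vascular laminins gave −0.25 ± 0.15 for LAMA4, 0.12 ± 0.11 for LAMB1, −0.01 ± 0.15 for LAMB2 and 0.06 ± 0.12 for LAMC1. The row described as LAMA5, classed as a pseudogene and hence no member, gave 0.54 ± 0.17, adjusted p = 0.0224, and the 3′ row of COL4A1 0.35 ± 0.17, adjusted p = 0.113. The other largest shifts at 6h belonged to low genes and were not called: COL9A3 1.03 ± 0.60, COL2A1 0.92 ± 0.62 and COL10A1 0.78 ± 0.59. Over the alternatives they ran from 0.37 to 1.27, from 0.24 to 1.65 and from 0.42 to 1.27. COL9A3 shares its strand with an overlapping gene.

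In PD the same comparisons rested on 4 shallower libraries per time. The count filter left out 5 members, COL10A1, COL22A1, COL26A1, COL9A1 and COL9A3. At 6h 0 of 43 members tested were called by edgeR, against 0.142% of 15545 genes, with 1 at an unadjusted p under 0.05 and 0 by DESeq2. At 12h 1 of 43 was called, against 5.98% of all genes. This was COL11A1, which measured 3.11, 2.84, 0.974 and 2.44 CPM at 0h, 1.77, 2.03, 0.194 and 2.50 at 6h and 0.216, 0.325, 0.138 and 1.27 at 12h. It was lower at 12h in all 4 pigs (−2.53 ± 0.61, adjusted p = 0.0372). Only 2 to 20 counts stood behind the values at 12h, and the call was lost without pig 3, pig 4 or pig 5 and without the replicate block. LAMA1 went from 2.62, 2.79, 2.06 and 2.12 to 1.08, 0.974, 0.0689 and 1.02 CPM, lower in all 4 pigs and without overlap, yet missed the threshold by edgeR (−1.92 ± 0.62, adjusted p = 0.0872). It was called by DESeq2 and with all 27 libraries in one fit.

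LAMB3 in PD measured 47.8, 26.3, 44.9 and 52.9 CPM at 0h and 224, 71.2, 53.6 and 60.4 at 12h. It was higher in all 4 pigs, and the error of the fitted change was larger than in GS (1.13 ± 0.53, adjusted p = 0.218 by edgeR). It was called with GC and length trends removed and with all 27 libraries in one fit, and the adjusted p over the alternatives ranged from 0.0147 to 0.525. Pig 2, whose 12h library had the lowest total count, held the value of 224 CPM. The log2 changes of single pigs ran from 0.19 to 2.23, the latter in pig 2, and the fitted change over the alternatives from 0.57 to 1.45. COL17A1 was also higher in all 4 pigs, 7.15, 3.48, 2.92 and 10.03 CPM at 0h and 8.20, 7.57, 9.44 and 14.02 at 12h (0.79 ± 0.44, adjusted p = 0.300). Among uncalled genes the largest falls at 12h were COL8A2 (−2.30 ± 0.99) and COL11A2 (−1.98 ± 0.71), with at most 7 counts per library at 12h, and the largest rise that of COL28A1 (1.28 ± 0.75). Over the alternatives COL8A2 ran from −3.60 to −1.67, COL11A2 from −2.23 to −1.65 and COL28A1 from 0.59 to 1.67. At 6h COL2A1 (−1.62 ± 1.36) and COL11A2 (−1.62 ± 0.68) were lowest, and COL25A1 (0.98 ± 0.81), COL6A2 (0.77 ± 0.63) and LAMA3 (0.76 ± 0.51) highest. COL6A2 and LAMA3 were up in 3 of 4 pigs and COL25A1 in all 4, and single pigs moved the values: COL6A2 was 0.055 without pig 3, LAMA3 0.29 without pig 4 and COL25A1 0.64 without pig 4. The fibrillar chains COL1A2 (−0.84 ± 0.43) and COL3A1 (−0.75 ± 0.42) were lower in 3 of 4 pigs at 12h and were not called.

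**Figure D3:**
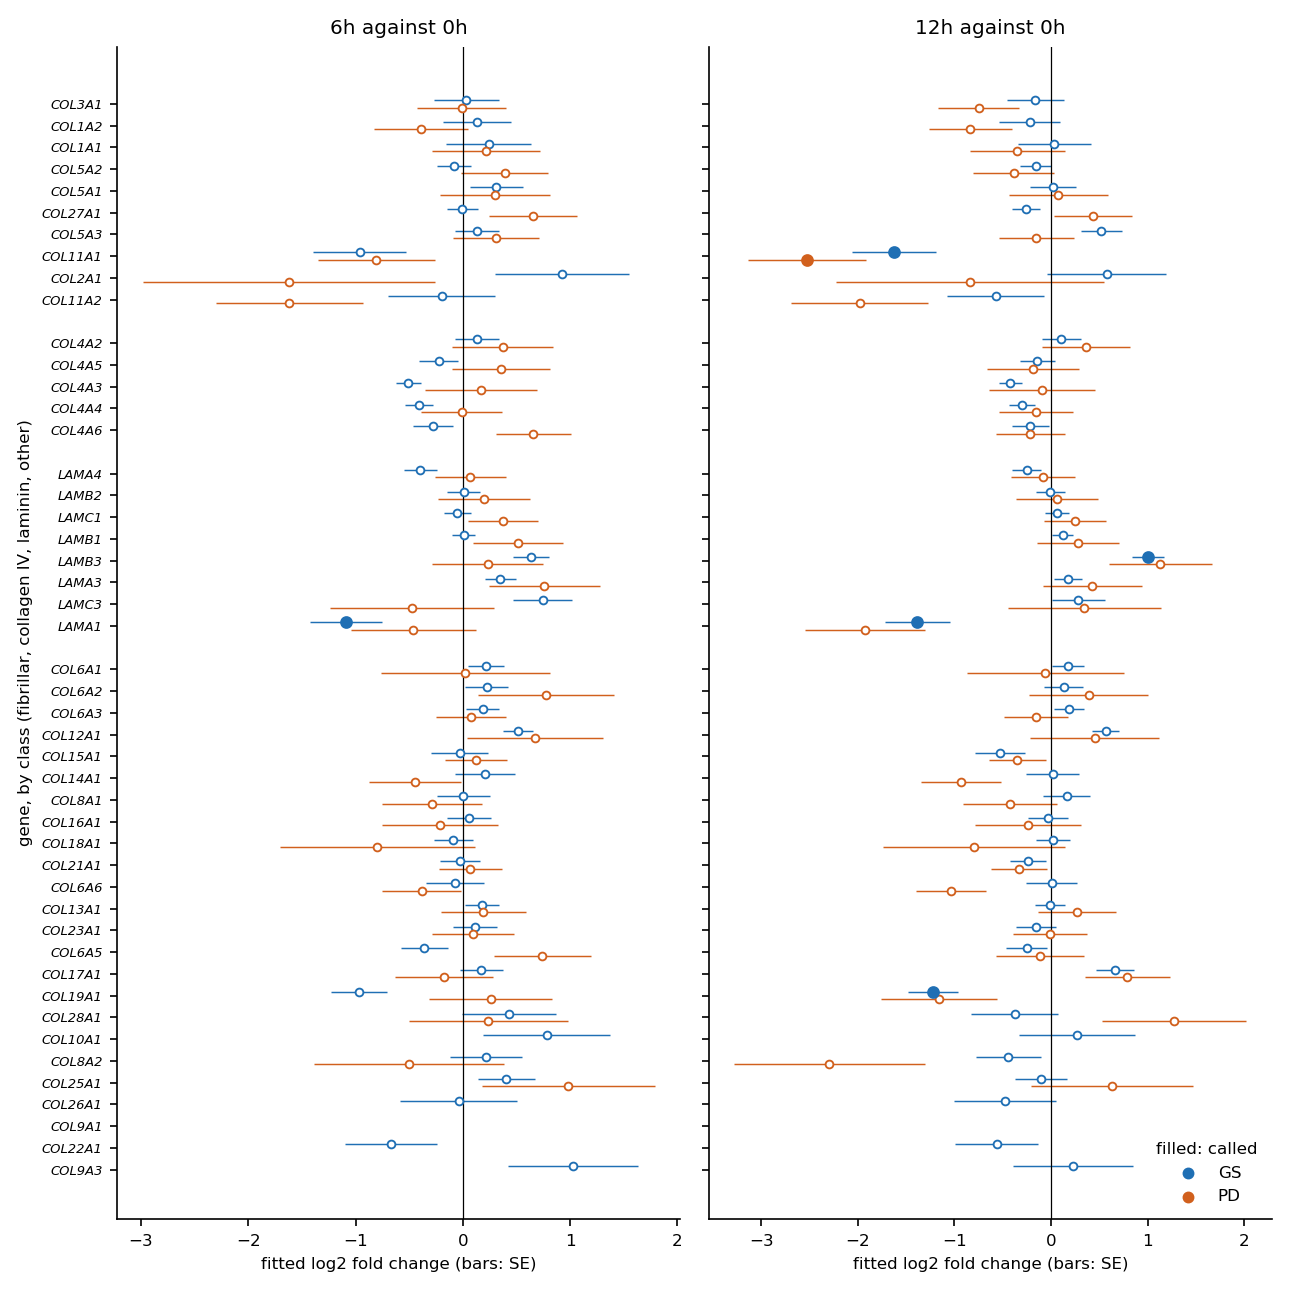
Fitted log2 fold change against 0h of the tested members (1 is not shown) at 6h and 12h in GS (blue) and PD (orange), with SE bars and filled points for called genes; COL9A1 was tested in neither group. The SE of PD exceeds that of GS for each gene shown in both groups, and filled points appear for LAMA1, LAMB3, COL11A1 and COL19A1 only.

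The comparison of 12h with 6h and that of the changes between the groups gave no call. For 12h against 6h edgeR called 0 of 47 members in GS and 0 of 43 in PD, and 0% of all genes in both, with 2 and 4 members at an unadjusted p under 0.05. The difference between the changes of PD and GS, tested as the interaction of group and time, gave 0 of 47 members at 6h and 0 of 47 at 12h, again with a background of 0%, and 3 and 1 members at an unadjusted p under 0.05. DESeq2 also called 0 in these 4 comparisons. An exact Wilcoxon test on rlog changes of 4 against 5 pigs cannot go below p = 0.0159, and put 0 members (6.04% of all genes) under 0.05 at 6h and 2 (4.04%) at 12h without adjustment. These were COL14A1 and COL6A6, both lower in PD, and their adjusted p was 0.786. The interaction for LAMB3 at 12h was 0.09 ± 0.52, and that for COL11A1 −0.89 ± 0.75. A gene called in GS and not in PD was therefore not shown to respond differently.

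More members were called before perfusion began than in any other comparison, and the same held for the share of all genes called. At 0h 10 of 44 members tested (22.7%) were called between PD and GS, against 29.1% of 16477 genes, and all 10 were lower in PD. Counted in both directions, members were thus called no more often than genes at large. The 4 members not tested were COL10A1, COL26A1, COL9A1 and COL9A3. Over all genes 13.9% were called lower and 15.2% higher in PD. The median log2 difference of the members was −0.44, beside 0.00 over all genes. The called genes were 4 fibrillar chains (COL27A1, COL5A3, COL5A1, COL1A1), 2 of collagen IV (COL4A6, COL4A2), 2 laminins (LAMB2, LAMC1) and 2 of collagen VI (COL6A2, COL6A1). Since depth and the 5′ coverage of COL4A1 separate the same libraries, the part of these in the calls and that of the animals cannot be told apart. In bulk tissue fewer cells of a type and less RNA per cell cannot be told apart either, here and in the other comparisons.

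COL27A1 (ENSSSCG00000005487, chromosome 1, 254769519 to 254923823, + strand) measured 80.6, 80.5, 142, 129 and 129 CPM in GS and 20.4, 16.7, 24.8 and 25.8 in PD (−2.31 ± 0.25, adjusted p = 3.79e-05). COL6A2 measured 298, 389.8, 377, 412 and 441 CPM in GS and 125, 57.4, 30.04 and 137 in PD (−2.10 ± 0.39, adjusted p = 0.00121). COL6A1 measured 741, 686, 906, 1009 and 988 and 252, 110.1, 244 and 358 CPM (−1.80 ± 0.31, adjusted p = 7.80e-04). For none of these 3 genes did the groups overlap. The third chain of collagen VI, COL6A3, gave −0.58 ± 0.25, adjusted p = 0.0812, which did not meet the threshold. COL5A1, which limits fibril diameter, gave −1.50 ± 0.23, adjusted p = 3.39e-04, and COL5A3 −1.53 ± 0.26, adjusted p = 7.20e-04. LAMB2 gave −1.30 ± 0.21, adjusted p = 4.84e-04, LAMC1 −1.28 ± 0.23, adjusted p = 0.00116, and COL4A6 −1.41 ± 0.31, adjusted p = 0.00376.

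Collagen I was split. COL1A1 (ENSSSCG00000036135, chromosome 12, 26379090 to 26397003, - strand) measured 691, 588, 605, 787 and 767 CPM in GS and 473, 202, 173 and 322 in PD (−1.19 ± 0.29, adjusted p = 0.00650). COL1A2 (ENSSSCG00000015326, chromosome 9, 74173931 to 74210398, + strand) measured 659.9, 710.4, 407, 586 and 615 CPM in GS and 1265, 673, 1056 and 1024 in PD (0.80 ± 0.24, adjusted p = 0.0202), a difference in the other direction of less than 2-fold. Both chains enter the same molecule, with COL1A1 in excess. The log2 ratio of COL1A1 to COL1A2 counts within a library needs no scaling between libraries. At 0h it was 0.07, −0.27, 0.57, 0.43 and 0.32 in GS and −1.42, −1.74, −2.61 and −1.67 in PD, with no overlap. At 6h it was −0.12, −0.63, 0.91, 0.71 and 0.87 in GS and −2.87, −0.47, −1.42 and −0.74 in PD, where PD pig 3 lay above GS pig 17. At 12h it was −0.01, −0.35, 0.96, 1.01 and 0.95 and −1.32, −1.19, −2.39 and −0.86, without overlap.

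Of the other pairs of chains some parted at 0h and some did not. The log2 ratio of COL6A2 to COL6A3 at 0h was −1.53, −0.75, −0.69, −0.998 and −0.81 in GS and −2.35, −2.60, −3.49 and −2.15 in PD. That of LAMA4 to LAMC1 was −0.25, 0.19, −0.24, −0.29 and −0.24 in GS and 1.08, 1.34, 1.11 and 1.05 in PD. In both pairs the groups did not overlap at 0h. They did overlap in COL4A3 to COL4A4 (0.04 to 1.05 in GS, −0.48 to 0.73 in PD), LAMB3 to LAMA3 (−2.02 to −0.94 and −2.31 to 0.38) and LAMB1 to LAMB2 (−1.36 to −0.57 and −1.19 to −0.12). Of the 10 pairs compared here 7 did not overlap at 0h, and in all 7 the chain that was relatively low in PD had the higher GC content. It was 62.3% in COL1A1 against 53.7% in COL1A2 and 55.5% in COL3A1, 67.1% in COL6A1 and 65% in COL6A2 against 58.4% in COL6A3, 68.4% in COL5A1 against 50.3% in COL5A2, 58.3% in COL4A6 against 52.8% in COL4A5, and 51.2% in LAMC1 against 47.7% in LAMA4. Of the 3 pairs that overlapped, LAMB1 to LAMB2 had that order by the group medians and the other two had the opposite one. The pairs share chains and are no independent counts. The share of all gene pairs without overlap at 0h was not computed, and 29.1% of all genes were called between these libraries by edgeR. Nothing particular to collagen and laminin chains is therefore read from the count of pairs. Members with over 60% GC had a median log2 difference at 0h of −0.997 (17 genes), those of 50% to 60% −0.37 (17 genes) and those under 50% −0.08 (10 genes). Over all genes the medians for these classes were −0.19, −0.15 and 0.21. When the trends of counts with exon length and GC content were removed, 7 members were called, of which COL27A1, COL6A1 and COL6A2 were lower in PD and COL1A2, COL14A1, COL8A1 and COL17A1 higher. Of the 7 calls lost, COL5A1 (−0.94), LAMC1 (−0.84), COL5A3 (−0.79) and LAMB2 (−0.64) kept an adjusted p of at most 0.0178 by edgeR and DESeq2 in every alternative and missed only the 2-fold threshold. COL4A6 (−0.71), COL4A2 (−0.51) and COL1A1 (−0.43) had an adjusted p of up to 0.0623, 0.166 and 0.241 over the alternatives. The part of base composition and 5′ coverage in the remaining differences was not tested.

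**Figure D4:**
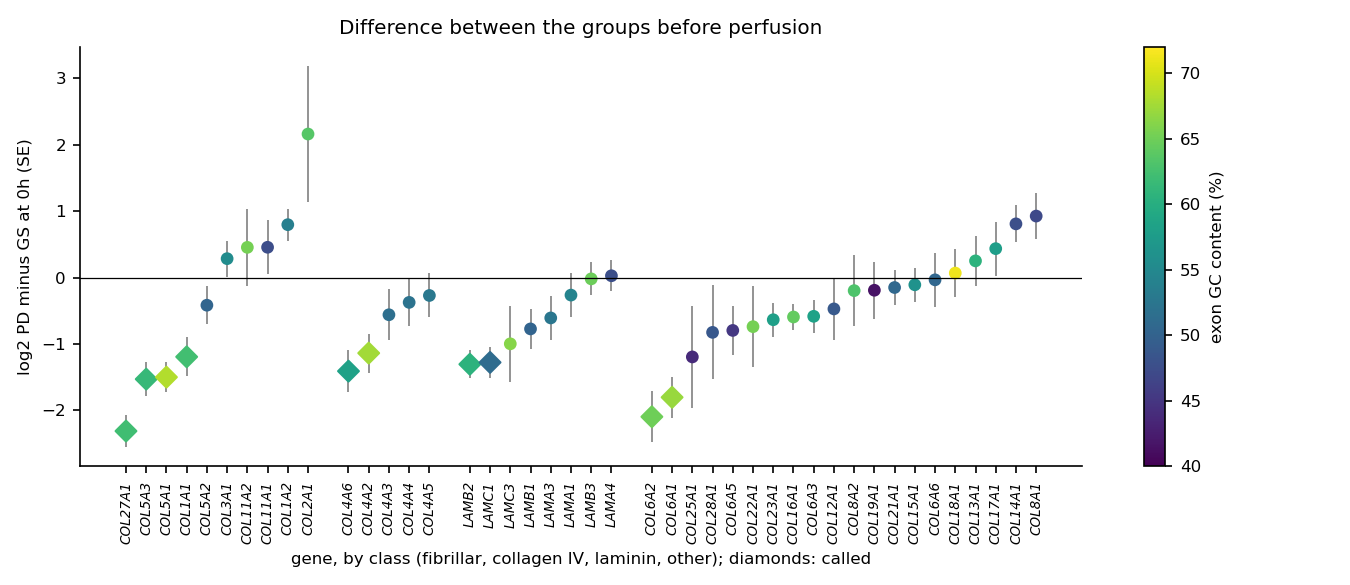
Log2 difference PD minus GS at 0h for 43 of the 44 members tested, ordered within classes, with SE bars, diamonds for called genes and colour for exon GC content. All 10 diamonds lie below 0, and 9 of them have a GC content of 58.3% or more.

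COL4A1 and COL4A2 are transcribed away from each other from a shared promoter, and their products form 1 trimer. In the table they are separated by 101 bases, shown because 2 genes with unlike values at 0h meet there. The stretch chr11:76997415-76997515 of Sscrofa11.1 is written 5′ to 3′ on the plus strand, on which COL4A2 lies. Capitals mark CCAAT and GGGCGG, searched on both strands (the reverse complement of GGGCGG is CCGCCC).
COL4A1/COL4A2: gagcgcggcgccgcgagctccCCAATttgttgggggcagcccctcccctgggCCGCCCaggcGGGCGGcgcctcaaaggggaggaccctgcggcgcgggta
It has 77.2% GC and holds CCAAT and, on each strand, GGGCGG. Of 20665 windows of 101 bases before RefSeq protein-coding genes, 17.8% held CCAAT on either strand, 34% GGGCGG and 6.6% both. At 0h COL4A2 measured 664, 1132, 742, 890.3 and 723 CPM in GS and 523, 279.7, 207 and 458 in PD (−1.14 ± 0.29, adjusted p = 0.00885). The 3′ row of COL4A1 measured 683, 908, 558, 708 and 661 CPM in GS and 901, 553, 661 and 824 in PD, which overlap (0.10 ± 0.22, adjusted p = 0.737). Its 5′ row measured 335, 434, 288, 425 and 377 CPM in GS and 163, 105, 13.3 and 43.8 in PD, without overlap (−2.15 ± 0.54, adjusted p = 0.00749). This gene thus gave a called difference or a difference near 0, depending on the part of the transcript that was counted.

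**Figure D5:**
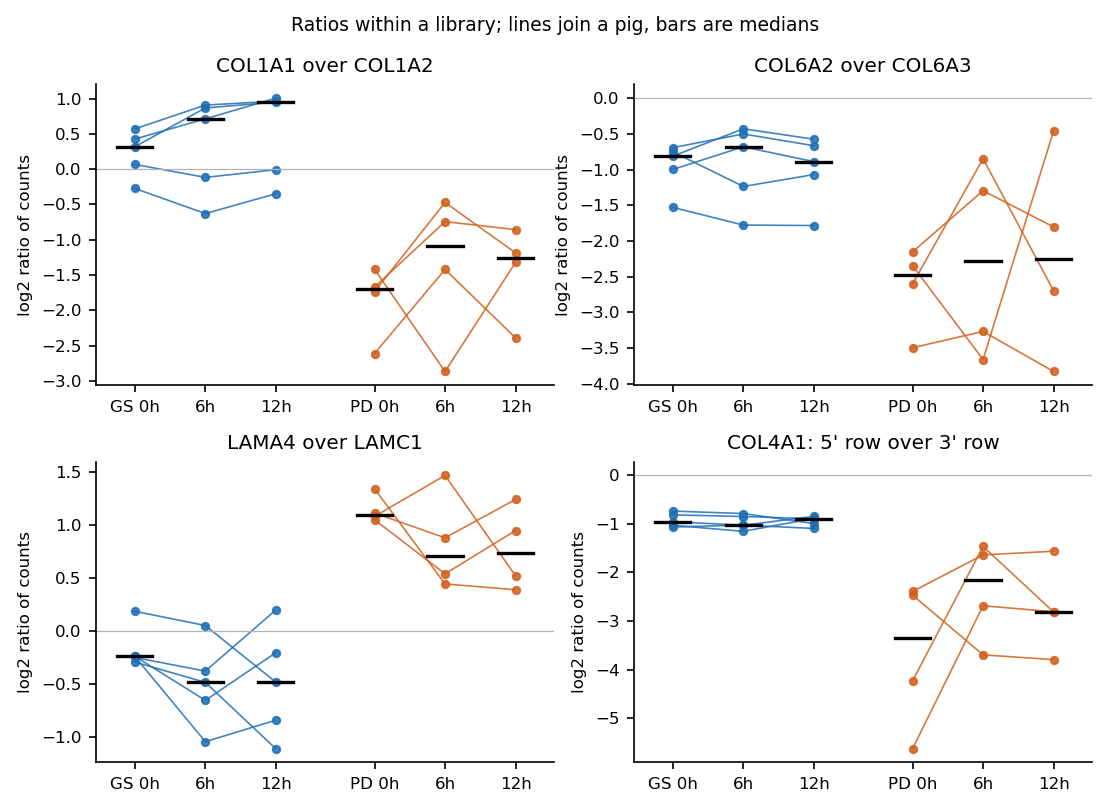
Log2 ratio of counts within each library for 3 pairs of partner chains and for the 5′ and 3′ rows of COL4A1, by group and hours of EVLP; a line joins the biopsies of a pig and black bars are medians. GS and PD do not overlap at 0h in any panel, and the COL4A1 ratio spreads from −5.63 to −1.46 in PD but only from −1.15 to −0.73 in GS.

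The COL4A1 ratio also moved over time within PD. Between 0h and 6h it fell in pig 2 and rose in pigs 3, 4 and 5. COL6A2 did the same, from 125, 57.4, 30.04 and 137 CPM to 46.1, 315, 43.9 and 180.2. This pattern of signs was found in 9 of 43 members (20.9%), among them COL4A2, LAMB1, LAMB2, LAMC1 and LAMA3, and in 9.36% of all 15545 genes. The opposite pattern was found in 0 members and 1331 genes. At 12h the COL4A1 ratio in PD was −3.80, −1.56, −2.81 and −2.81, against −2.47, −2.39, −5.63 and −4.23 at 0h. It was thus again lower in pig 2 and higher in pigs 3, 4 and 5. The part of this ratio in the changes of PD at 6h and 12h was not tested, and the pattern of signs was chosen after its values were seen. In GS the ratio lay between −1.15 and −0.73 at all 3 times, and its part in the changes of GS was not tested either.

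Genes of the machinery that makes, crosslinks and binds collagen were read against the shares called over all genes, 11.1% and 15.7% in GS at 6h and 12h and 0.142% and 5.98% in PD. Of 31 genes of biosynthesis and crosslinking tested, 0 were called in GS at 6h (10 at an unadjusted p under 0.05) and 3 at 12h. Of these MIA3, needed to export procollagen from the endoplasmic reticulum, rose (1.12 ± 0.13) and TLL1, a procollagen C-proteinase, fell (−1.39 ± 0.36), as did COLGALT2, a collagen galactosyltransferase (−1.09 ± 0.38). In PD 1 was called at 12h, TLL1 again (−1.74 ± 0.39), and 0 at 6h (2 at an unadjusted p under 0.05). Of 15 basement membrane partners only FREM1 was called, at 6h in GS (−1.06 ± 0.23). Of 27 other matrix genes only THBS1, a matricellular protein, was called in GS (1.31 ± 0.26 at 6h and 1.18 ± 0.26 at 12h), and none in PD, where 2 had an unadjusted p under 0.05 at each time. Of 12 collagen and laminin receptors and 15 genes of the TGF-β axis, the main inducer of collagen genes, 0 were called in either group by edgeR. At an unadjusted p under 0.05 stood 2 and 5 receptors in GS at 6h and 12h, 0 and 2 in PD, 6 and 8 TGF-β genes in GS, and 0 and 2 in PD. By adjusted p alone, with 13.6% of all genes up and 14.9% down at 6h and 17.6% up and 20.8% down at 12h, 3 of 15 TGF-β genes at 6h and 4 at 12h rose in GS and 0 fell. Of 12 receptors 0 rose and 2 fell at each time. Of the biosynthesis genes 3 rose and 2 fell at 6h and 5 rose and 6 fell at 12h, of the basement membrane partners 1 rose and 2 fell and then 2 rose and 4 fell, and of the other matrix genes 2 rose and 1 fell and then 1 rose and 1 fell. These counts are small, and nothing particular to a list is read from them.

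At 0h, against 29.1% of all genes, 6 of 31 biosynthesis genes were called between the groups, 2 of 15 partners, 12 of 27 other matrix genes, 3 of 12 receptors and 6 of 15 TGF-β genes. Higher in PD were 2, 1, 4, 0 and 0 of these, among them the matrix proteins DPT (2.67 ± 0.33), MFAP5 (1.74 ± 0.37) and ASPN (1.71 ± 0.43), the prolyl hydroxylase subunit P4HA3 (1.93 ± 0.49) and TINAGL1 (1.44 ± 0.29). Lower in PD were 4, 1, 8, 3 and 6, among them the crosslinking enzymes LOX (−1.42 ± 0.30) and LOXL2 (−1.22 ± 0.23), ELN (−1.63 ± 0.50), DDR2 (−2.22 ± 0.59) and LTBP3 (−2.28 ± 0.42).

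Markers of the cells that make these proteins were read beside them. Of 7 fibroblast markers 1 was called in GS, MEOX2, at 6h (−1.46 ± 0.24) and at 12h (−1.21 ± 0.23). Their summed level was 446 to 713 CPM in GS and 361 to 537 CPM in PD at 0h. At 0h 4 of the 7 were called, PDGFRA (−1.57 ± 0.27), PDGFRB (−1.74 ± 0.35) and TCF21 (−1.44 ± 0.39) lower in PD and DPT higher. Other markers separated the same libraries at 0h. The sum of 3 red cell markers was 0.355 to 10.4 CPM in GS and 51.7 to 237 CPM in PD, with HBB higher by 4.96 ± 0.73. SFTPC of alveolar type 2 cells was higher in PD (3.56 ± 0.40) and SFTPB lower (−1.35 ± 0.38). Of 3 neutrophil markers tested S100A8 was called higher (3.27 ± 0.50) and 1 was called lower, with a median log2 difference of −0.70. CXCR2 and CSF3R had lower medians in PD (22.8 and 26.6 CPM) than in GS (35.98 and 61.5 CPM). Of 5 macrophage markers 2 were called, CD68 (−1.89 ± 0.36) and CSF1R (−1.63 ± 0.29), both lower. The median log2 difference of these 5 was −0.59, while MRC1 had the higher median in PD (290.7 against 207.1 CPM). Of 6 endothelial markers KDR was called in GS at 6h (−1.15 ± 0.18), and 0 at 12h, with 3 at an unadjusted p under 0.05. Of 4 alveolar type 1 markers 0 were called in GS by edgeR, with 1 at 6h and 2 at 12h at an unadjusted p under 0.05. Their median log2 change in GS was −0.19 at 6h and −0.25 at 12h, beside −0.05 and −0.08 over all genes. Of 5 smooth muscle markers 0 were called in GS by edgeR, with 3 at 6h and 1 at 12h at an unadjusted p under 0.05. At 0h CDH5 (−1.69 ± 0.37) and KDR (−1.21 ± 0.44) of endothelium were lower in PD, and CLDN5 of endothelium was higher (1.67 ± 0.42). Of 5 smooth muscle markers 1 was called at 0h, MYH11, which was lower in PD (−1.31 ± 0.36). The median log2 difference of these 5 was 0.005. ACTA2, TAGLN and DES had higher medians in PD (688.5, 448.6 and 192.7 CPM) than in GS (493.2, 410.6 and 166.7 CPM), and CNN1 a lower one (63.4 against 105.8 CPM). Of 3 T cell markers CD2 was called in GS at 12h (−1.20 ± 0.16), where all 3 fell by adjusted p, and CD3D in PD at 12h (−1.58 ± 0.32). HBB of red cells fell in GS at 6h (−1.57 ± 0.47) and at 12h (−1.50 ± 0.45). In GS, where LAMB3 and COL17A1 rose at 12h, 4 alveolar type 2 markers summed to 6379 to 8943 CPM at 0h and 6013 to 14164 CPM at 12h. Their median log2 change at 12h was 0.25, with 0 called by edgeR, 1 up by adjusted p and 2 at an unadjusted p under 0.05. Of 4 airway markers 2 were called lower in GS at 12h, SCGB1A1 (−1.61 ± 0.28) and TP63 of basal cells (−1.59 ± 0.27), and 3 fell by adjusted p alone. TP63 was also called lower at 6h (−1.13 ± 0.27). The airway markers summed to 83.0 to 1058 CPM in GS at 0h and 38.4 to 352 CPM at 12h. In PD the airway sum went the other way, from 912, 661, 633 and 1149.9 CPM at 0h to 1796, 429.6, 1926 and 1888 at 12h, higher in 3 of 4 pigs. The median difference between the changes of PD and GS over these 4 markers was 1.44 at 12h, with 0 called by edgeR and 3 at an unadjusted p under 0.05. Of 5 cartilage markers tested in GS, CNMD (1.57 ± 0.41) and SOX9 (1.13 ± 0.26) rose at 12h while COL11A1 fell, and MATN1, a defining matrix protein of cartilage, had 0 to 18 counts per library. The part of cell composition in the changes of the collagen and laminin genes was not tested.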

How the data were processed

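RNA of 27 lung biopsies (9 pigs, 3 times) was sequenced after poly(A) selection with a stranded kit, as paired ends. The authors trimmed reads with Cutadapt 1.15, aligned them with TopHat2 2.0.14 to Sscrofa11.1 and counted them on Ensembl genes; the submitters' processing notes name featureCounts of Subread 1.6.0 and DESeq2 1.18.1. The deposited values used here are raw counts per gene and library. How strand and multiply aligned reads were treated in counting is not given in the sources used here, so values of overlapping genes (COL9A3, COL13A1, COL14A1, COL23A1 and LAMB2 on the same strand, COL3A1 with COL5A2, COL4A3 with COL4A4 and COL10A1 on opposite strands) are uncertain.

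Counts were analysed with edgeR 4.0.16 in R 4.3.3: low genes were filtered with filterByExpr, libraries scaled by TMM, and changes from 0h tested by the quasi-likelihood test within each group with the pig as replicate block. The block follows the design, since the same pig was biopsied 3 times; deviations from the group means correlated within a pig at a mean r of 0.545 in GS and 0.066 in PD, and between pigs at −0.121 and −0.0156. PD and GS were compared at 0h without a block, and changes by the interaction. P-values were adjusted by Benjamini-Hochberg over all genes tested. CPM are TMM-scaled. A floor of 3 counts is 0.0411 to 0.104 CPM in GS libraries and 0.129 to 0.324 CPM in PD libraries; it covers counting error only. No libraries were duplicates. The script was tested on simulated counts. Exon lengths, base composition and sequences came from RefSeq, in which all 48 members were matched.

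Genes were named if called, if among the 3 highest per class or the 3 largest changes in each direction, or if chains of the listed trimers; from other lists at most the 3 largest called changes per direction. The members and lists were chosen with earlier results of these data known. Alternatives were DESeq2 1.42.0, its size factors, no filter, no fold threshold, no block, other sets of libraries, removal of length trends, an exact Wilcoxon test and leaving out each pig; removal of GC and length trends together was chosen after seeing the data. The values of 1 member are not reported here, though it is included in the counts and sums.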

Additional observations from a re-analysis of the deposited data

Results flagged for a closer look

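Over 108 sets of samples (14 genes and 4 class sums in 6 combinations of group and time), 7 had 1 library far from the others, judged by its gap to the nearest library as a share of the whole range on the log2 scale. Chance gives about 0.05 of such sets. The part of library quality in these values was not tested.

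COL11A1 was low in GS pig 44 at 6h, at 0.126 CPM, with a gap of 0.836 of the range, and in PD pig 4 at 6h, at 0.194 CPM, with a gap of 0.849. COL19A1 was low in GS pig 17 at 12h, at 0.634 CPM (gap 0.725), and in PD pig 4 at 0h (gap 0.884). LAMA1 had a single count in PD pig 4 at 12h, which is 0.0689 CPM and lies under the floor (gap 0.952). Among abundant genes COL6A2 was low in GS pig 9 at 12h (205 CPM, gap 0.763), and so was LAMB2 in the same library (271 CPM, gap 0.753). COL6A2 and LAMB2 were not called within GS.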

How the results depend on the processing

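Without the replicate block 0 members were called in GS at 6h (1 with it) and 0 in PD at 12h (1 with it). The count in GS at 6h was also 0 with the length trend removed, with GC and length trends removed, with only the 2 times compared and with all 27 libraries in one fit, 6 without a fold threshold, and 0 to 1 when a pig was left out (0 without pig 17). In GS at 12h it was 8 without a fold threshold and 3 to 4 with a pig left out. In PD at 12h it was 2 by DESeq2, 3 with GC and length trends removed, 0 with only the 2 times compared, 7 with all 27 libraries in one fit, and 0 to 2 with a pig left out (2 without pig 2, 0 without pig 3, 4 or 5). The unadjusted Wilcoxon test gave 2 for the difference of changes at 12h. Of 564 alternatives for 44 named results 562 kept their direction. COL2A1 in PD at 6h ranged from −2.58 to 0.094 with a pig left out, the rise being without pig 2, and COL16A1 at 0h turned to 0.075 with GC and length trends removed. The summed collagen IV change in GS at 12h became −0.21 on raw library totals and −0.23 without its most abundant gene, and that of laminins −0.15 on raw totals. Where the alternative used fewer samples or other scaling the cause was not tested. Depth limits LAMA1, COL11A1, COL19A1, COL8A2 and COL11A2, which had few counts in PD.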

Other observations

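The row described as LAMA5 was lower in PD at 0h by a log2 difference of −0.83 that did not pass the test (adjusted p = 0.0739, edgeR).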
